A study of Homo sapiens with 7 samples.

Results

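The HOXA, HOXB and HOXD clusters were followed as 43 regions of the histone mark H3K4me3 (lysine 4 of histone H3 carrying 3 methyl groups) out of 30840 regions with deposited values. The regions are all those that overlap 1 of 3 windows of hg19: chr7:27125000-27255000 for HOXA, chr17:46600000-46815000 for HOXB and chr2:176945000-177060000 for HOXD. HOXA and HOXB each held 16 regions and HOXD held 11. H3K4me3 was mapped by chromatin immunoprecipitation and sequencing in HCT116, an established line of human colon cancer cells, and all groups lacked KDM5A (genotype KDM5A-/-). Cells were transfected with KDM5A, wild-type or mutant, or with an empty vector (EV) and were fixed 24 h later. Per the labels, the knockout cells were kept in the selection drug G418, and the sources do not name the residues changed in the mutant. The title of the series concerns KDM5A as a substrate of the lysine methyltransferase SMYD2. Each transfection gave 1 H3K4me3 library, so no difference below has a replicate check or a p-value.

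HOX genes encode homeodomain transcription factors that give cells along the body axis their regional identity, and their order along a cluster follows the order in which they are used from head to tail. H3K4me3 marks the starts of active and CpG-rich genes, and HOX clusters are a textbook case of chromatin held between Trithorax proteins, which write this mark, and Polycomb proteins, which keep the genes silent. KDM5A is a JmjC demethylase that removes methyl groups from lysine 4 of histone H3, and its ARID domain is known to prefer the letters CCGCCC.

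By the RefSeq gene table of GRCh38.p14, the 29 member genes run from paralog group 1 outward as HOXA2, HOXA3, HOXA4, HOXA5, HOXA6, HOXA7, HOXA9, HOXA10, HOXA11 and HOXA13, then as HOXB1 to HOXB9 and HOXB13, and as HOXD1, HOXD3, HOXD4 and HOXD8 to HOXD13. Coordinates rise in this order on chromosomes 7 and 17 and fall in it on chromosome 2. No annotation of hg19 was used, so the regions are placed by coordinates and by distance from the window edge on the group 1 side, and none is given to a single gene. RefSeq promoters of GRCh38.p14, taken as the 250 bases before each start, were found for 18 of the 29 genes and gave 25 promoters. They came from 9 of 10 HOXA genes, 1 of 10 HOXB genes and 8 of 9 HOXD genes.

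The promoters with the most and the fewest CG pairs are shown for HOXA and HOXD, since H3K4me3 is found at CpG-rich starts. For HOXB only 1 promoter was found, so it shows no spread within that cluster. CCGCCC and its reverse complement GGGCGG are in capitals. The promoter coordinates are of GRCh38.p14 and cannot be set against those of the hg19 regions. HOXA13, the gene at the far end of HOXA from group 1, lies on the minus strand at chr7:27200092-27200341. 1 of the 7 listed starts of HOXA3 lies on the minus strand at chr7:27119596-27119845. HOXB1, the first gene of HOXB, lies on the minus strand at chr17:48531012-48531261. HOXD1, the first gene of HOXD, lies on the plus strand at chr2:176188418-176188667, and HOXD4 on the plus strand at chr2:176151300-176151549.
HOXA13: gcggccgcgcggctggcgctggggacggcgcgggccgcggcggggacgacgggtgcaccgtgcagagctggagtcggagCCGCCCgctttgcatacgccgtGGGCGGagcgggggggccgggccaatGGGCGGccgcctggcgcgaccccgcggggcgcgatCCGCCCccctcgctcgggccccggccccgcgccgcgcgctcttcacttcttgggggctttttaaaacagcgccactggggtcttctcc
HOXA3: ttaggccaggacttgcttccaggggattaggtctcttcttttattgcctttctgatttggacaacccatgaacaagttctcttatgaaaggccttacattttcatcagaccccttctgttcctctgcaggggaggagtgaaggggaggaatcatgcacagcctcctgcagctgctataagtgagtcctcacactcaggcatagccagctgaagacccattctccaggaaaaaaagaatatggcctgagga
HOXB1: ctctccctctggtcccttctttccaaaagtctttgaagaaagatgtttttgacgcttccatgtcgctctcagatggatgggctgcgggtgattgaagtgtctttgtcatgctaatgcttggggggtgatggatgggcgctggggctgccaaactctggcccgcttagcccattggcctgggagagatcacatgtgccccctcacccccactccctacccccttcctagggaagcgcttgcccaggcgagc
HOXD1: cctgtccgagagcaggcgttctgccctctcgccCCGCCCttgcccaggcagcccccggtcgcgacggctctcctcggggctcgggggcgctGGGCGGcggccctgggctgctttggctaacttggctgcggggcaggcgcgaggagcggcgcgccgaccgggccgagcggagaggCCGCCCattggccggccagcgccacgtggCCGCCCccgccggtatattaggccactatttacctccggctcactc
HOXD4: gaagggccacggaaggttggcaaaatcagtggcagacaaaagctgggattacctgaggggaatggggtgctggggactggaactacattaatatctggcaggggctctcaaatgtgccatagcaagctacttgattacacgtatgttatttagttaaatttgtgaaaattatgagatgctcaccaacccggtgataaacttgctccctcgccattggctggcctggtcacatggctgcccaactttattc
The HOXA13 promoter held 40 CG pairs, more than 97.8% of the 35116 RefSeq promoters of this length. The HOXD1 promoter held 31, HOXB1 held 7, HOXD4 held 4 and the HOXA3 start shown held 0. Over the 25 HOX promoters the median was 20 CG pairs, against 11 over all promoters, and 17 of the 25 lay above that value. CCGCCC, searched on both strands, was in 13 of the 25 (52%) and in 42.6% of all promoters. It was found 4 times in HOXA13 and 4 times in HOXD1. A match is a description of the letters and was not set against a measurement of binding.

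Values are deposited RPM, reads per 1000000 reads of the library. The 3 libraries held 10713021 reads with the empty vector, 10852411 under wild-type and 9906508 under mutant KDM5A. All intervals are 95% counting intervals from the whole reads behind the RPM. They cover counting error only, and not differences between cultures or immunoprecipitations. They also take reads as independent, which PCR copies are not, so they may be too narrow even for counting error. The share of a library's reads that fell in the 30840 regions was 67.0% with the empty vector, 60.7% under wild-type and 56.9% under mutant KDM5A. The share under wild-type or mutant KDM5A over that with the empty vector is the ratio over all regions given below, 0.905 and 0.849. Plain ratios to the empty vector are not corrected for this shift, and the ratios of ratios do not depend on it. What made the shares differ was not tested. Neither the inputs nor the IgG control were analysed here.

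With the empty vector, HOXA and HOXB carried most of the mark and HOXD little. The regions of HOXA summed to 726 RPM with the empty vector, 593 under wild-type and 544 under mutant KDM5A. Those of HOXB summed to 703, 613 and 556 RPM, and those of HOXD to 131, 105 and 100.4 RPM. Regions covered 41.7% of the HOXA window, 19.97% of the HOXB window and 15.0% of the HOXD window. Per kb of window the empty vector library had 5.58 RPM in HOXA, 3.27 in HOXB and 1.14 in HOXD. Per covered kb the order of the first 2 was the other way round, with 13.4 RPM in HOXA, 16.4 in HOXB and 7.38 in HOXD. HOXA was thus covered more broadly, and HOXB more densely where it was covered.

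Regions are called strong at a mean of 20 RPM or more over the 3 libraries, middle from 5 to 20 RPM and weak below 5 RPM. HOXA held 8 strong, 1 middle and 7 weak regions, and HOXB held 8 strong, 0 middle and 8 weak ones. HOXD held 2 strong, 4 middle and 5 weak regions. Strong regions made up 94.98% of the signal of HOXA and 97.2% of that of HOXB with the empty vector, but 50.4% of that of HOXD.

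**Figure D1:**
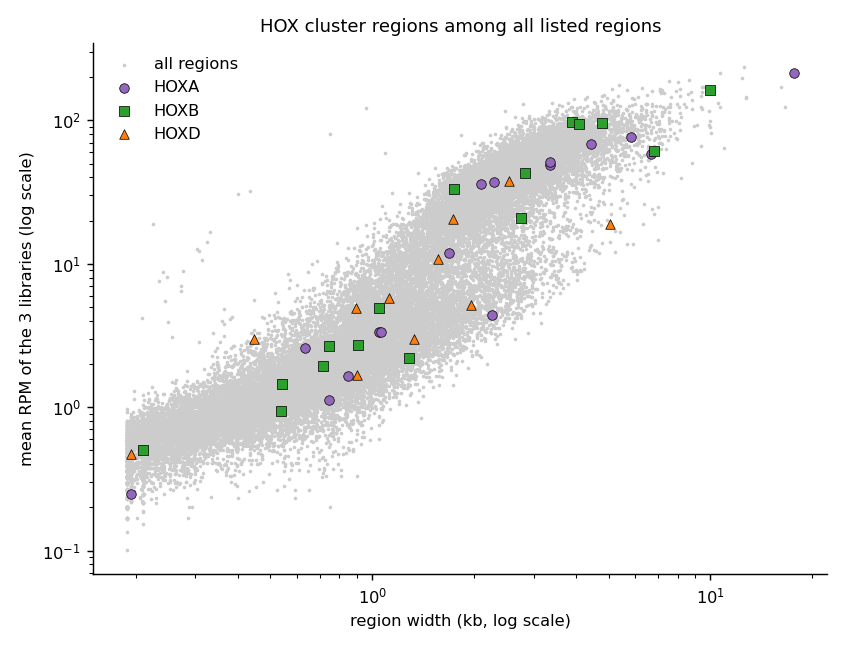
Mean RPM of the 3 libraries (y axis, log scale) against region width in kb (x axis, log scale) for all 30840 regions (grey points), with HOXA as circles, HOXB as squares and HOXD as triangles. The widest region of all, 17696 bp, is the HOXA circle at the upper right, and the widest HOXD triangle, 5051 bp, lies below most regions of its width.

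The widest region of the whole table lay in HOXA. It spanned chr7:27199702-27217397, 17696 bp, and had the second highest mean RPM of all regions. It carried 254 RPM with the empty vector, 208 under wild-type and 184 under mutant KDM5A, and held 35.1% of the HOXA signal with the empty vector. Its density of 14.4 RPM per kb with the empty vector lay within the range of the HOXA strong regions, 10.0 to 18.6, so its high total went with its width. The largest HOXB region spanned chr17:46686507-46696506, 10000 bp, and carried 185, 154 and 147 RPM in the same order of libraries. It ranked 13 by width and 18 by mean RPM among all regions and held 26.4% of the HOXB signal. The densest region of the 43 lay nearby at chr17:46701053-46704956, with 28.1 RPM per kb and 110 RPM with the empty vector, 97.6 under wild-type and 84.1 under mutant KDM5A. In all 3 of these regions the empty vector library was the highest and the mutant KDM5A library the lowest.

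HOXD differed from HOXA and HOXB in what its largest regions looked like. Its strongest region, chr2:176993762-176996308, carried 41.4 RPM with the empty vector, 36.2 under wild-type and 36.1 under mutant KDM5A. Its widest, chr2:176969136-176974186, was 5051 bp long and carried 24.7, 16.1 and 15.8 RPM, which is 4.90 RPM per kb with the empty vector. Its other strong region, chr2:177000535-177002269, carried 24.5, 19.7 and 17.0 RPM. A gap of 29.4 kb without any listed region, from 177022934 to 177052344, stood on its group 1 side. The longest gap was 39.6 kb in HOXB, from 46756262 to 46795872, and 11.5 kb in HOXA, from 27138512 to 27149972.

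**Figure D2:**
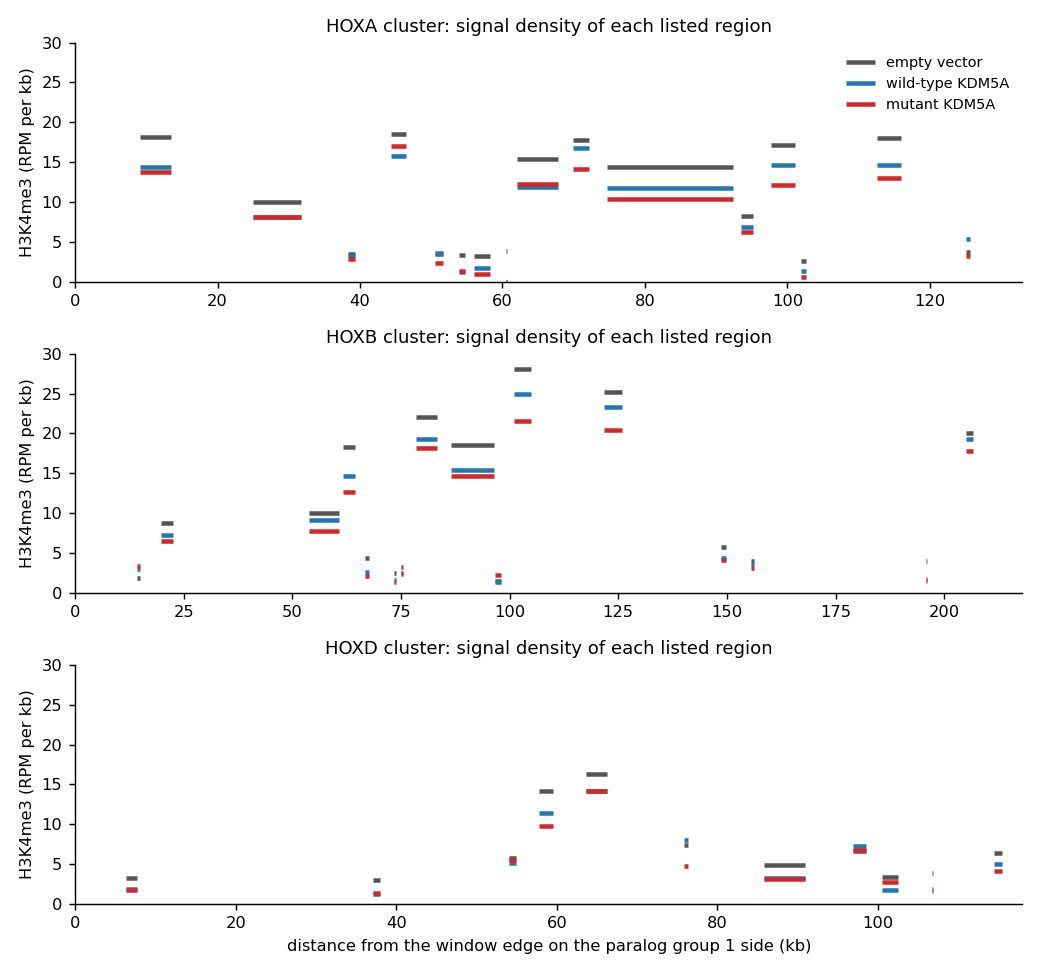
H3K4me3 density (y axis, RPM per kb of region) of each of the 43 regions against distance from the window edge on the paralog group 1 side (x axis, kb), 1 panel per cluster, drawn as bars as long as the regions in grey (empty vector), blue (wild-type KDM5A) and red (mutant KDM5A). The densest HOXB region reaches 28.1 RPM per kb with the empty vector, the widest HOXA region lies at 14.4, and the outermost HOXD regions on the group 1 side lie at 3.23 and 3.01.

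Along the clusters, most signal lay in regions with their midpoint in the middle of the window. Each window was cut into 3 equal segments, with segment 1 on the group 1 side. Each region was counted whole in the segment of its midpoint. The widest HOXA region, with 35.1% of the HOXA signal with the empty vector, ran into segment 3 but was counted wholly in the middle segment. How far a split by length would lower the HOXA share of the middle segment was not computed. The middle segment held 60.4% of the HOXA signal with the empty vector, 72.4% of the HOXB signal and 56.8% of the HOXD signal. Segment 1 held 20.8%, 21.3% and 5.35% in the same order of clusters, and segment 3 held 18.7%, 6.31% and 37.8%. HOXB thus had its thinnest segment at the far end and HOXD on the group 1 side. The level of single regions had no steady course along a cluster: the rank correlation of mean RPM with distance was -0.12 over the 16 regions of HOXA, 0.012 over the 16 of HOXB and 0.12 over the 11 of HOXD, as descriptions of regions that share their libraries.

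Wild-type KDM5A was compared with the empty vector to ask how much mark the clusters carried when the demethylase was put back. The summed signal with wild-type KDM5A was 0.817 times that with the empty vector in HOXA (0.791 to 0.845), 0.873 times in HOXB (0.844 to 0.902) and 0.799 times in HOXD (0.738 to 0.865). Over the 43 regions the ratio was 0.841 (0.822 to 0.860), and over all 30840 regions it was 0.905. The 3 clusters were therefore lower than the general shift between these libraries, which the ratio of the 2 ratios measures without regard to scaling. Against all other regions it was 0.903 for HOXA (0.873 to 0.933), 0.964 for HOXB (0.933 to 0.996) and 0.883 for HOXD (0.816 to 0.955). HOXB lay nearest to the general shift. All regions include the weak ones, whose summed ratio was 0.985. Among regions with a mean of 5 RPM or more HOXB was at 0.874, against 0.902 over all such regions. No interval was computed for that smaller gap. HOXA was 0.936 times HOXB in this measure (0.894 to 0.981) and HOXD was 0.916 times HOXB (0.841 to 0.997), while the interval between HOXA and HOXD ran from 0.939 to 1.11.

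Of the 18 strong regions of the 3 clusters, all 18 had a ratio below 1, as did 91.4% of all strong regions. The 18 ratios ran from 0.771 to 0.963. In 13 of the 18 the interval lay wholly below 1, against 40.9% of all 10887 strong regions. Intervals narrow with more reads, and 8 of the 18 were wider than 4 kb, against 1215 of the 10887. These shares were not matched for reads. In 14 of the 18 the ratio was below the median of all strong regions. The median log2 ratio, with 0.7 RPM added to each value, was -0.25 over the strong regions of the clusters and -0.15 over all strong regions. By cluster it was -0.29 in HOXA, -0.18 in HOXB and -0.25 in HOXD, so HOXB lay close to all strong regions. The gap was also there within classes of width: the summed ratio was 0.839 over the 8 of more than 4 kb and 0.891 over all 1215 strong regions of that width, and 0.864 over the 10 of 1 to 4 kb and 0.902 over all 9668 such regions.

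By single regions, the lowest strong ratio with wild-type KDM5A was that of chr7:27187001-27192827 in HOXA. It carried 89.8 RPM with the empty vector and 69.2 with wild-type KDM5A, a ratio of 0.771 (0.6996 to 0.849). The highest was that of chr17:46804965-46806706, the last region of HOXB from the group 1 side, with 35.0 and 33.7 RPM and a ratio of 0.963 (0.832 to 1.12). In HOXA the region first along the window, chr7:27134087-27138511, went from 80.4 to 63.6 RPM, a ratio of 0.791 (0.715 to 0.875). The region nearest to no difference there was chr7:27194858-27197144, with 40.8 and 38.2 RPM and a ratio of 0.937 (0.818 to 1.07). The spread of the strong log2 ratios in HOXA had an SD of 0.086, and counting alone would give 0.082. In HOXB the same values were 0.089 and 0.084. Within HOXA and within HOXB the strong regions were therefore not distinguishable from 1 common ratio at this depth.

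The other strong regions of HOXA lay between these values. The region chr7:27149973-27156668 carried 67.0 RPM with the empty vector and 54.6 with wild-type KDM5A, a ratio of 0.815 (0.730 to 0.910). The region chr7:27222730-27226081 carried 57.3 and 49.1 RPM, a ratio of 0.857 (0.762 to 0.964), and chr7:27237559-27240911 carried 60.5 and 49.2 RPM, a ratio of 0.813 (0.724 to 0.914). The smallest strong region of HOXA, chr7:27169292-27171391, carried 39.0 and 33.1 RPM, a ratio of 0.848 (0.734 to 0.979). All 4 were lower with wild-type KDM5A beyond counting error. The middle region chr7:27218548-27220229 carried 13.9 and 11.5 RPM, and its interval of 0.648 to 1.06 reached past 1.

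In HOXB the ratios of the strong regions ran from 0.798 to 0.963. The largest region, chr17:46686507-46696506, had a ratio of 0.832 (0.779 to 0.888), and the densest, chr17:46701053-46704956, had 0.889 (0.817 to 0.967). The region chr17:46678412-46683207 carried 106 RPM with the empty vector and 92.7 with wild-type KDM5A, a ratio of 0.878 (0.806 to 0.957). The lowest ratio was that of chr17:46661634-46664470, with 52.0 and 41.5 RPM (0.798, 0.703 to 0.905). In 2 further large regions the interval reached 1: chr17:46721691-46725784 carried 103 and 95.5 RPM (0.926, 0.850 to 1.01), and chr17:46653895-46660724 carried 68.2 and 61.9 RPM (0.907, 0.816 to 1.01). The strong region nearest to group 1, chr17:46619696-46622445, carried 24.2 and 20.1 RPM (0.831, 0.691 to 0.999).

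Among regions with a mean of 5 RPM or more, the ratios of HOXD ran from 0.536 to 1.1. The wide region chr2:176969136-176974186 carried 24.7 RPM with the empty vector and 16.1 with wild-type KDM5A, a ratio of 0.652 (0.535 to 0.792), and 3.16% of all middle regions had a lower log2 ratio. Its neighbour chr2:176957514-176959474 carried 6.53 and 3.5 RPM, a ratio of 0.536 (0.351 to 0.807). Between them, chr2:176961497-176963064 carried 10.4 and 11.4 RPM, a ratio of 1.1 (0.847 to 1.44), so the interval of this region did not meet those of its neighbours on either side. The strong region chr2:177000535-177002269 had a ratio of 0.803 (0.667 to 0.966), and that of chr2:176993762-176996308 was 0.874 (0.761 to 1.00).

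Counted by a threshold of 1.5-fold on the log2 scale, 9 of the 43 regions were lower with wild-type KDM5A and 0 were higher. Over all regions 6.53% were lower and 6.23% were higher. The 9 comprised 4 in HOXA, 1 in HOXB and 4 in HOXD, and 7 of them were weak. Among the 23 members with a mean of 5 RPM or more the count was 2, both in HOXD, against 0.959% of all such regions lower and 0.311% higher. These are the HOXD regions of 24.7 and 6.53 RPM with the empty vector described above.

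**Figure D3:**
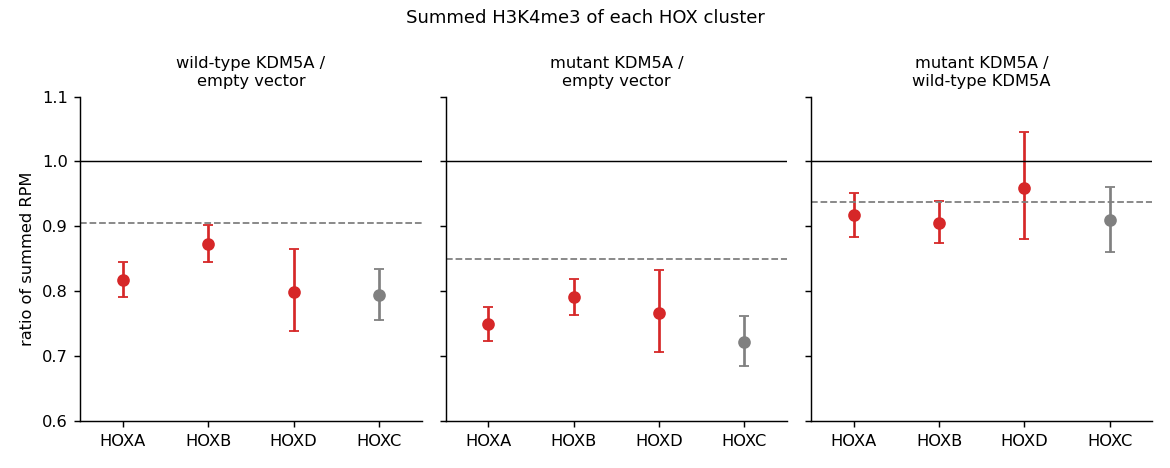
Ratio of summed RPM (y axis) for HOXA, HOXB and HOXD (red) and for HOXC (grey), for wild-type KDM5A over empty vector, mutant KDM5A over empty vector and mutant over wild-type KDM5A, with 95% counting intervals as bars. The dashed line is the ratio over all 30840 regions, and the solid line is 1: in the first and second panels all 4 clusters lie below the dashed line, HOXB nearest to it in the first panel at 0.873.

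Mutant KDM5A was compared with the same empty vector library, so the next values share their denominator with those above and are not a second measurement of the same difference. The summed signal with mutant KDM5A was 0.750 times that with the empty vector in HOXA (0.724 to 0.776), 0.791 times in HOXB (0.764 to 0.819) and 0.767 times in HOXD (0.706 to 0.832). Over the 43 regions the ratio was 0.770 (0.752 to 0.788), and over all regions it was 0.849. Against all other regions the ratio of ratios was 0.882 for HOXA (0.852 to 0.914), 0.931 for HOXB (0.899 to 0.964) and 0.903 for HOXD (0.832 to 0.979). All 3 clusters were lower than the general shift beyond counting error. HOXA was 0.948 times HOXB (0.903 to 0.996), and the interval of HOXD over HOXB ran from 0.888 to 1.06.

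All 18 strong regions had a ratio of mutant KDM5A to empty vector below 1, as did 98.0% of all strong regions. The 18 ratios ran from 0.689 to 0.918. The interval lay wholly below 1 in 15 of the 18, against 69% of all strong regions, again without matching for reads. In 15 of the 18 the ratio was below the median of all strong regions. The median log2 ratio was -0.35 over the strong regions of the clusters and -0.24 over all strong regions.

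The lowest strong ratio was that of chr17:46661634-46664470 in HOXB, with 52.0 RPM for the empty vector and 35.8 for mutant KDM5A (0.689, 0.602 to 0.789). In HOXD, chr2:177000535-177002269 carried 24.5 and 17.0 RPM (0.691, 0.566 to 0.842). In HOXA, chr7:27222730-27226081 carried 57.3 and 40.7 RPM (0.710, 0.624 to 0.806). Each cluster thus had a strong region at 0.710 or below. The HOXA region chr7:27237559-27240911 carried 60.5 and 43.4 RPM (0.718, 0.634 to 0.812), and the widest region, chr7:27199702-27217397, had a ratio of 0.721 (0.680 to 0.766). The highest ratio was that of chr7:27169292-27171391, with 39.0 and 35.8 RPM (0.918, 0.795 to 1.06). The spread of the strong log2 ratios was 0.12 in HOXA, where counting gives 0.085, and 0.11 in HOXB, where counting gives 0.089.

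In HOXD the wide region chr2:176969136-176974186 carried 15.8 RPM with mutant KDM5A, 0.641 times the empty vector (0.523 to 0.783), and 5.59% of all middle regions had a lower log2 ratio. The region chr2:176957514-176959474 carried 5.45 RPM with mutant KDM5A, 0.834 times the empty vector (0.574 to 1.21). The region chr2:176961497-176963064 carried 10.6 RPM, 1.02 times the empty vector (0.776 to 1.35). The last region from the group 1 side, chr2:176944486-176945603, which straddles the window edge, carried 7.19 RPM with the empty vector, 5.62 under wild-type and 4.64 under mutant KDM5A (0.646, 0.438 to 0.943).

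Past 1.5-fold with mutant KDM5A, 8 of the 43 regions were lower and 1 was higher, where 8.15% and 6.61% of all regions were. The lower ones comprised 4 in HOXA, 1 in HOXB and 3 in HOXD. Only the wide HOXD region had a mean of 5 RPM or more, 1 of 23 members, against 2.17% of all such regions lower and 0.271% higher. The 1 higher region was the first of HOXB, chr17:46614271-46614986, with 1.31 RPM for the empty vector, 2.12 under wild-type and 2.42 under mutant KDM5A. Its interval of 0.921 to 3.88 reached below 1.

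**Figure D4:**
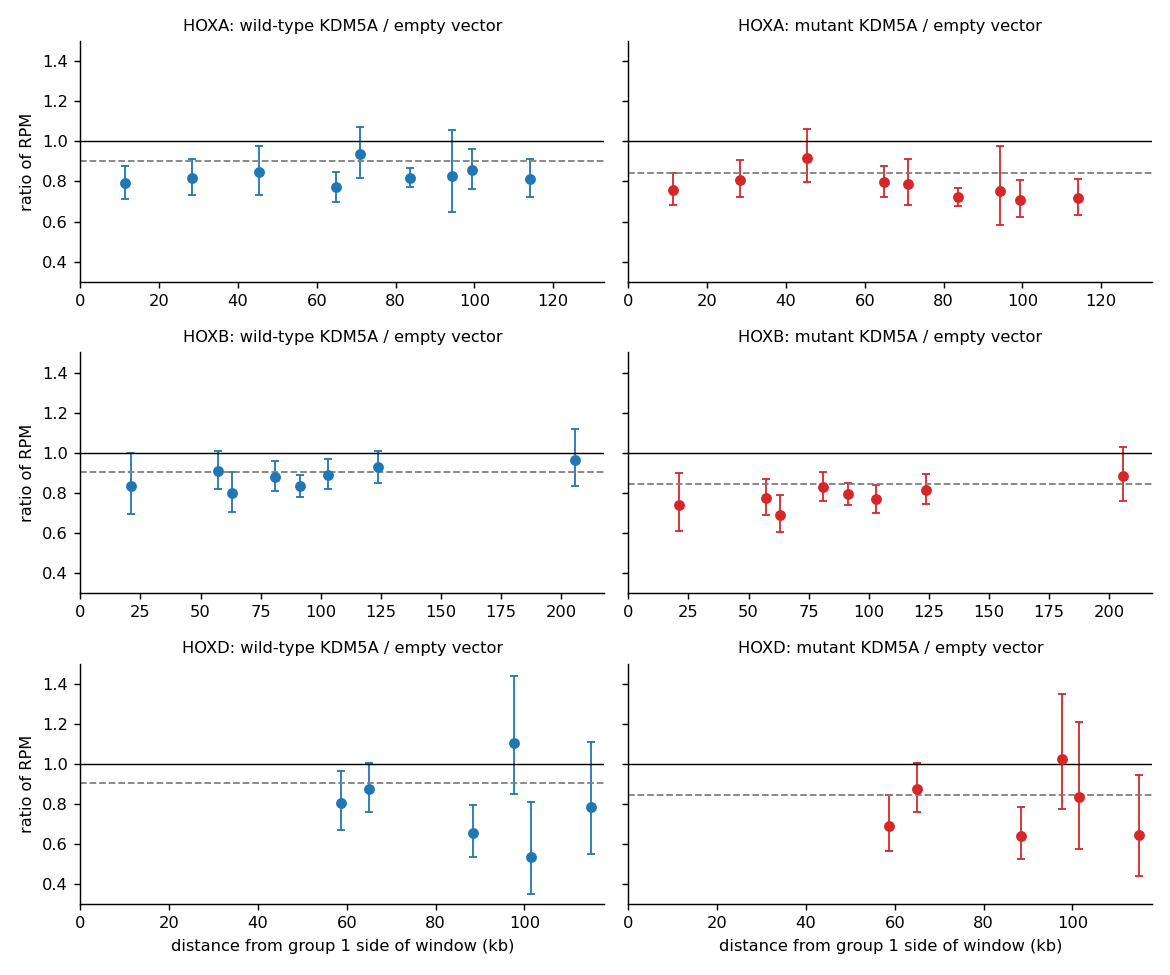
Ratio of RPM to the empty vector (y axis) for wild-type KDM5A (left, blue) and mutant KDM5A (right, red) against distance from the group 1 side of the window (x axis, kb), for the 23 regions with a mean of 5 RPM or more, with 95% counting intervals as bars. The dashed line is the ratio of summed RPM over all regions of that level (0.902 left and 0.845 right), and the HOXD points spread most, from 0.536 to 1.1 on the left.

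Mutant KDM5A was set against wild-type KDM5A to compare the forms directly. The summed signal was 0.917 times that with wild-type KDM5A in HOXA (0.884 to 0.951), 0.906 times in HOXB (0.874 to 0.939) and 0.960 times in HOXD (0.880 to 1.05), and 0.938 times over all regions. Against all other regions the ratio of ratios was 0.977 for HOXA (0.943 to 1.01), 0.965 for HOXB (0.931 to 1.00) and 1.02 for HOXD (0.939 to 1.11). No single cluster was distinguishable from the general shift between these libraries at this depth, and the 3 together were at 0.975 (0.952 to 0.999). The clusters were not distinguishable from each other either: HOXA was 1.01 times HOXB (0.962 to 1.07) and HOXD was 1.06 times HOXB (0.966 to 1.16).

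Of the 18 strong regions, 16 were below 1 with the mutant, where 79.6% of all strong regions were. In 7 the interval lay wholly below 1, where 20.7% of all strong regions did, without matching for reads. The lowest was chr7:27222730-27226081 in HOXA, with 49.1 RPM for wild-type and 40.7 for mutant KDM5A (0.828, 0.726 to 0.944). The highest was chr7:27169292-27171391, also in HOXA, with 33.1 and 35.8 RPM (1.08, 0.933 to 1.26). The spread of strong log2 ratios was 0.14 in HOXA, where counting gives 0.088, and 0.060 in HOXB, where counting gives 0.092. In the small HOXD region chr2:176957514-176959474 the mutant library was 1.56 times the wild-type library (1.01 to 2.42), on 38 reads with wild-type and 54 with mutant KDM5A. Past 1.5-fold, 5 of the 43 regions were lower and 0 higher, where 5.45% and 5.19% of all regions were. Of the 23 members with a mean of 5 RPM or more the count was 0 both ways, against 0.529% and 0.119% of all such regions.

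The position along a cluster was then set against these ratios, with each region again counted whole in the segment of its midpoint. In HOXA the ratio of wild-type KDM5A to empty vector was 0.805 in segment 1 (0.748 to 0.867), 0.815 in segment 2 (0.781 to 0.850) and 0.840 in segment 3 (0.778 to 0.907). With mutant KDM5A it was 0.782 (0.725 to 0.844), 0.750 (0.717 to 0.784) and 0.713 (0.657 to 0.774). Segment 3 over segment 1 was 1.04 with wild-type (0.939 to 1.16) and 0.912 with mutant KDM5A (0.816 to 1.02), so neither order was beyond counting error. Mutant over wild-type KDM5A was 0.971 in segment 1 (0.897 to 1.05), 0.920 in segment 2 (0.878 to 0.964) and 0.849 in segment 3 (0.780 to 0.924). Segment 3 over segment 1 was 0.874 in this measure (0.779 to 0.981), which does not depend on the empty vector library. The interval lies below 1, but it is 1 of 9 such ratios computed (3 clusters by 3 pairs of libraries), was not adjusted for that number, and the other 8 intervals included 1.

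The single strong regions of HOXA hold most of the reads behind these segment ratios, so their order is not a second observation. In segment 1, chr7:27134087-27138511 carried 63.6 RPM with wild-type and 60.9 with mutant KDM5A (0.957, 0.857 to 1.07), and chr7:27149973-27156668 carried 54.6 and 54.2 RPM (0.992, 0.881 to 1.12). In segment 2, chr7:27187001-27192827 carried 69.2 and 71.5 RPM (1.03, 0.931 to 1.15). The 4 strong regions nearest to group 1 therefore all had intervals that included 1. The next 4, from chr7:27194858-27197144 outward, had ratios of 0.842 (0.725 to 0.977), 0.882 (0.829 to 0.939), 0.828 (0.726 to 0.944) and 0.882 (0.775 to 1.003), and the last of these intervals also included 1. The rank correlation of the ratio of mutant to wild-type KDM5A with distance was -0.65 over the 9 HOXA regions of 5 RPM or more, and it was 0.24 over 8 in HOXB and -0.086 over 6 in HOXD.

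In HOXB the ratios to the empty vector were nearer to 1 with distance from group 1. With wild-type KDM5A they were 0.855 in segment 1 (0.795 to 0.919), 0.872 in segment 2 (0.839 to 0.907) and 0.941 in segment 3 (0.826 to 1.07). With mutant KDM5A they were 0.741 (0.685 to 0.800), 0.800 (0.768 to 0.833) and 0.854 (0.744 to 0.980). Segment 3 over segment 1 was 1.1 with wild-type (0.950 to 1.28) and 1.15 with mutant KDM5A (0.986 to 1.35), so neither was distinguishable from no difference at this depth. Of the 44.3 RPM of segment 3 with the empty vector, most came from its 1 strong region, chr17:46804965-46806706. That region carried 35.0 RPM with the empty vector, 33.7 under wild-type and 30.9 under mutant KDM5A. Over the 8 HOXB regions of 5 RPM or more the rank correlation of ratio with distance was 0.60 (wild-type KDM5A to empty vector) and 0.67 (mutant KDM5A to empty vector). In HOXA it was 0.30 and -0.68, and in HOXD -0.37 and -0.086.

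In HOXD segment 1 held 2 weak regions with 75 reads with the empty vector, 38 under wild-type and 34 under mutant KDM5A. The first, chr2:177052345-177053672, carried 4.29 RPM with the empty vector, 2.40 under wild-type and 2.22 under mutant KDM5A. The second, chr2:177022034-177022933, carried 2.71, 1.11 and 1.21 RPM. Both were highest with the empty vector, and the segment ratio was 0.50 with wild-type (0.329 to 0.748) and 0.490 with mutant KDM5A (0.317 to 0.745). The middle segment had 0.862 (0.778 to 0.956) and 0.809 (0.726 to 0.900), and segment 3 had 0.747 (0.655 to 0.852) and 0.743 (0.649 to 0.851). Segment 3 over segment 1 was 1.49 with wild-type (0.990 to 2.25) and 1.52 with mutant KDM5A (0.990 to 2.32), and both intervals reach 1.

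The 20 weak members held most of the regions past 1.5-fold. Lower past it were 7 of the 20 with wild-type and 7 with mutant KDM5A, where 1870 and 2184 of all 15714 weak regions were. The summed ratio of the 20 was 0.770 with wild-type (0.683 to 0.869) and 0.657 with mutant KDM5A (0.577 to 0.747). Over all weak regions it was 0.985 and 0.961. In HOXA 4 of them stood side by side between chr7:27175554 and 27185698. The largest, chr7:27180967-27183224, carried 7.37 RPM with the empty vector, 3.78 under wild-type and 2.12 under mutant KDM5A, on 79, 41 and 21 reads. Its ratio was 0.512 with wild-type (0.342 to 0.756) and 0.287 with mutant KDM5A (0.169 to 0.470), and 0.197% of all weak regions had a lower log2 ratio of mutant to empty vector. At a mean of 4.42 RPM it lies just under the bound of the middle class and was named after its values were seen, as were the other weak regions given here that are not first or last along a window.

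Its neighbour chr7:27178830-27179679 carried 2.80 RPM with the empty vector, 1.01 under wild-type and 1.11 under mutant KDM5A (0.362, 0.164 to 0.743, and 0.397, 0.179 to 0.814). The region chr7:27185505-27185698 had 8 reads with the empty vector and 0 with either form of KDM5A, where 0 reads allow up to 0.276 RPM under wild-type and 0.303 RPM under mutant KDM5A. The fourth, chr7:27175554-27176614, carried 3.64, 3.87 and 2.52 RPM and was not lower with wild-type KDM5A (1.06, 0.671 to 1.69). Elsewhere in HOXA, chr7:27226907-27227649 carried 1.96, 1.01 and 0.404 RPM (0.206 with mutant KDM5A, 0.0514 to 0.610). The last region of HOXA, chr7:27250044-27250676, carried 2.33, 3.41 and 2.02 RPM, and its interval included 1 with both forms. In HOXB the 1 weak region past 1.5-fold lower was chr17:46666702-46667608, with 3.92, 2.30 and 1.92 RPM.

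HOXC, the fourth HOX cluster, was set beside the 3 clusters as the most similar set of regions. Its 17 regions summed to 327 RPM with the empty vector, 259 under wild-type and 236 under mutant KDM5A, ratios of 0.794 (0.755 to 0.835) and 0.722 (0.685 to 0.761). Past 1.5-fold, 9 of the 17 were lower and 0 higher with each form, where 6.53% and 8.15% of all regions were lower. Among its 9 regions of 5 RPM or more, 4 were lower with each form, against 0.959% and 2.17% of all such regions. Regions of that level past the threshold were therefore not particular to HOXD. In the ratio of ratios HOXC was 0.910 times HOXB with wild-type (0.857 to 0.966) and 0.914 times HOXB with mutant KDM5A (0.858 to 0.973), while the intervals of HOXC over HOXA and over HOXD included 1 in both comparisons.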

How the data were processed

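H3K4me3 ChIP-seq libraries of 3 transfections of HCT116 KDM5A-/- cells were used, 1 per group, and neither inputs nor IgG were analysed here. The authors deposited 1 table of regions with the RPM of each library, on hg19. Per the submitters' processing notes, the tools were deepTools 3.5.6, HOMER, MACS, MACS2 and Bowtie2 2.5.4. Region calling and read counting: not given in the sources used here. 1 column header has H3K4me4 for the empty vector, taken as a slip for H3K4me3. Since RPM is relative to all reads of a library, a general loss of mark and a poorer immunoprecipitation would look alike.

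Values were whole multiples of the RPM of a single read (0.0933, 0.0921 and 0.101 RPM for empty vector, wild-type and mutant KDM5A) for 100% of values within 0.1 reads. Reads so recovered gave the totals and the exact conditional (Clopper-Pearson) 95% intervals of ratios. A count of 0 allows up to 3 reads. Intervals of ratios of ratios are on the log scale from the sum of inverse reads. Log2 ratios used a pseudocount of 0.7 RPM and understate the change of weak regions. Regions past 1.5-fold were counted on that scale, and ratios are without pseudocount. With 1 library per group no test was made. The members, lists and classes were chosen with earlier results of these data known. Named by rule were, per cluster, the 6 regions of highest mean RPM, the first and last, the 2 lowest and 2 highest log2 ratios to the empty vector among regions of 5 RPM or more, and each such region past 1.5-fold. A list of HOX regulators and cofactors was not analysed here, since no region was given a gene. The RefSeq tables of GRCh38.p14 gave gene order and promoters only. The steps were tested on simulated data. Alternatives were 2 other scalings, windows widened by 20 kb or regions wholly inside, a filter at 5 RPM, leaving out the top region, pseudocounts of 0.07 and 3.5 RPM, a lowess trend on level (span 0.3) removed and a 2-fold threshold. Scripts ran in Python 3.11.15 with scipy 1.17.1, statsmodels 0.14.6, numpy 2.4.6, matplotlib 3.10.9 and pandas 2.3.3.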

Additional observations from a re-analysis of the deposited data

How the results depend on the processing

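Of 102 values recomputed under the alternatives, 74 stayed within their error or within 1.5 times and 28 moved. The summed ratio of mutant to wild-type KDM5A in HOXD, whose interval includes 1, was 0.960 as deposited and turned to 1.02 under both other scalings. The scaling between libraries moved the cluster sums most. Scaled to a median ratio of 1 over the higher regions, wild-type KDM5A to empty vector was 0.904 in HOXA, 0.965 in HOXB and 0.884 in HOXD, mutant KDM5A to empty vector 0.885, 0.933 and 0.905, and mutant to wild-type KDM5A 0.979 in HOXA and 0.967 in HOXB. Scaled to equal sums over all regions, the values were 0.903, 0.964 and 0.883, then 0.882, 0.931 and 0.903, and then 0.977 and 0.965. These factors are 1.11 and 1.18 for wild-type and mutant KDM5A by the median and 1.1 and 1.18 by the sums. With the trend on level removed, median log2 ratios to the empty vector were -0.19 in HOXA and -0.16 in HOXB with mutant KDM5A and -0.11 in HOXB with wild-type KDM5A. Counts of regions past the threshold moved with it: at 2-fold, 2, 3 and 0 regions were lower (wild-type to empty vector, mutant to empty vector, mutant to wild-type) in place of 9, 8 and 5, and 0 in place of 1 were higher with mutant KDM5A. Scaled to the median, 5 were lower and 2 higher with wild-type KDM5A, 2 were higher with mutant KDM5A, and 3 were lower and 2 higher for mutant to wild-type KDM5A.

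No paired analysis was possible because each group has 1 library. With 1 library per group, differences between cultures and between immunoprecipitations cannot be told apart from those between transfections, and weak regions rest on few reads.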

Other observations

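Regions within 100 kb outside the windows give the setting of the clusters. On the high side of HOXA a single region, chr7:27274554-27275925, carried 20.2 RPM with the empty vector, 12.3 under wild-type and 12.7 under mutant KDM5A, ratios of 0.612 (0.490 to 0.763) and 0.631 (0.502 to 0.789) to the empty vector. On its low side 3 regions summed to 0.653, 2.12 and 1.41 RPM. Beside HOXB, 5 regions on the low side summed to 37.6, 38.9 and 34.7 RPM and 3 on the high side to 73.8, 61.2 and 62.3 RPM. Beside HOXD, 1 region on the low side carried 45.4, 41.8 and 38.4 RPM, and 2 on the high side summed to 43.6, 37.9 and 42.4 RPM. These regions were looked at after the values of the clusters were seen.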
